A study of Mus musculus with 30 samples.

Results

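The circadian clock genes were described in nuclear RNA of mouse embryonic stem (ES) cells that lost SRCAP, the ATPase of a remodeler that places the histone variant H2A.Z in chromatin. The set held 10 genes (Clock, Arntl, Per1, Per2, Per3, Cry1, Cry2, Nr1d1, Nr1d2 and Dbp) of the 55401 in each count table, found by gene identifier. All 10 had enough exon reads to be tested in every comparison.

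The clock is a feedback loop of transcription. CLOCK and BMAL1, the product of Arntl, bind E-box elements and activate Per, Cry, Nr1d1, Nr1d2 and Dbp, while PER and CRY proteins repress CLOCK and BMAL1. NR1D1 and NR1D2 (REV-ERBs) repress Arntl through RORE elements, and DBP activates genes with D-box elements. Undifferentiated ES cells express many clock genes but do not run a circadian oscillation, which appears when they differentiate.

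Most libraries came from SYAT cells, CGR8 ES cells in which both Srcap alleles carry YPet and an auxin-inducible degron and which express the auxin receptor OsTir1. Indole-3-acetic acid (IAA) at 500 µM then degrades SRCAP, and control cultures held auxinole, which blocks the receptor. There were 15 conditions with 2 libraries each, 30 in all, from cells grown in medium with serum and LIF. A time course covered control and 2, 4, 6 and 8 h of IAA. Parental CGR8 cells, which have no degron, were a control or received IAA for 4 h. SYAT cells carrying an mCherry mitotic degron were sorted as early G1 (EG1) or late G1 (LG1), each as control or with IAA for 1 h. In the last table SYAT cells also carried a doxycycline-inducible SRCAP-mCherry, either wild type (wtSRCAP) or with a dead ATPase (cdSRCAP), 1 clone of each. These cells received doxycycline for 24 h and IAA for 4 h or none, and were sorted for mCherry, so the SRCAP form and the clone cannot be told apart. SRCAP is degraded as protein, and Srcap RNA, at log2 differences of 0.13 to 0.32 from control over the time course, does not check its loss.

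Exon counts per library totalled 17.5 to 22.9 M in the time course, 45.6 to 60.2 M in CGR8 cells, 19.7 to 26.7 M in sorted cells and 12.2 to 26.4 M in the wtSRCAP and cdSRCAP lines. The 8 markers of ES cells (such as Pou5f1, Sox2 and Nanog) summed to 1508 to 4162 CPM, the count scaled to a common library size, against 0.583 to 4.90 for the mesoderm markers and at most 46.6 for the fibroblast markers, the largest sum among the lists of other cell types. Replicate 2 of 6 h IAA stood apart from the rest of the time course, with a correlation of 0.978 to its own replicate, and so did replicate 1 of wtSRCAP with IAA, the shallowest library, with 0.968.

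Promoter sequences are shown first, since members of the loop are both regulators and targets of the same short elements. RefSeq windows (GRCm38.p6) of 250 bases before to 50 bases after a start were available for 9 of the members, in 13 windows. Both strands were searched for the E-box CACGTG, the D-box TTANGTAA, the RORE core TAGGTCA and the cAMP response element TGACGTCA, which stood in 7.15%, 2.32%, 2.61% and 1.79% of all 32851 windows. No 2 of these letter strings overlapped in a member's window. The 3 windows with a match upstream of the start are printed without their last 50 bases, 5′ to 3′ on the gene's strand, with the matched letters in capitals.
Cry1, chr10:85185055-85185304, minus strand: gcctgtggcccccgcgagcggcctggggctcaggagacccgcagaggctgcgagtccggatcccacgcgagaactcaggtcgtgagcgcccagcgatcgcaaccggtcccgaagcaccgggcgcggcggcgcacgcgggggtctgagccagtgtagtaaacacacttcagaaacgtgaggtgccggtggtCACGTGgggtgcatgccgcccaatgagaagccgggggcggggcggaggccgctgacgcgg
Per1, chr11:69098699-69098948, plus strand: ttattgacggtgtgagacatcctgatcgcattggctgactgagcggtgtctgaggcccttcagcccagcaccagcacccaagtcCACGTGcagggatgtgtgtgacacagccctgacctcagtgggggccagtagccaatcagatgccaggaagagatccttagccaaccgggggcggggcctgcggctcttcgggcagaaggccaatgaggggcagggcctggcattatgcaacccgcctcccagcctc
Per3, chr4:151044666-151044915, minus strand: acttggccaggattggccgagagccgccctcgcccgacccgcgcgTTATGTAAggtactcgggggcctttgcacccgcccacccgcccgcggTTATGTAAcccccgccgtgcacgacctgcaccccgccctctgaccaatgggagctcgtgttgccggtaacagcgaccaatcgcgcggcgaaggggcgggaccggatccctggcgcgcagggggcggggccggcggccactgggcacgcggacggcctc
Cry1 had an E-box whose first base lay 60 bases before the start, and Per1 had one 166 bases before it. Per3 had 2 D-boxes, at 205 and 158 bases before the start. The second Arntl window held the RORE core 30 bases after its start. Windows of Cry2, Clock, Nr1d1, Nr1d2 and Dbp held none of the 4 strings. A match describes letters only and no binding was measured here.

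The members lie on separate stretches of the genome (GRCm38, GENCODE vM21). Cry1 spans chr10:85131700-85185064 and Per1 spans chr11:69095217-69109960. Per2 spans chr1:91415982-91459324 and Nr1d2 spans chr14:18204054-18239127. A few share exonic bases with an antisense gene, so that reads from both cannot be told apart if strand was not used in counting: Nr1d1 shares 263 bases with Thra, Dbp 539 bases with Sphk2, Cry2 295 bases with D930015M05Rik and Arntl 33 bases with Gm45355.

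Levels were compared between genes only per length, as exon CPM per kb over the 10 libraries of the time course. The repressor Cry1 had the highest level, with a median of 17.4 (14.1 to 25.3). Per1, whose product acts with CRY, followed at 8.81 (7.10 to 10.6). The REV-ERB genes had 6.08 (5.07 to 7.68) for Nr1d1 and 5.12 (4.30 to 6.40) for Nr1d2, and Cry2 had 4.57 (4.19 to 5.11). The activators were lower, at 1.60 (1.25 to 2.35) for Clock and 1.25 (0.808 to 1.47) for Arntl, with the output gene Dbp between them at 1.52 (1.12 to 2.15). Per3 had 0.846 (0.712 to 0.984) and Per2 0.390 (0.248 to 0.596). In this order the ranges of neighbouring genes were separate only between Cry1 and Per1, between Cry2 and Clock and between Per3 and Per2.

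**Figure D1:**
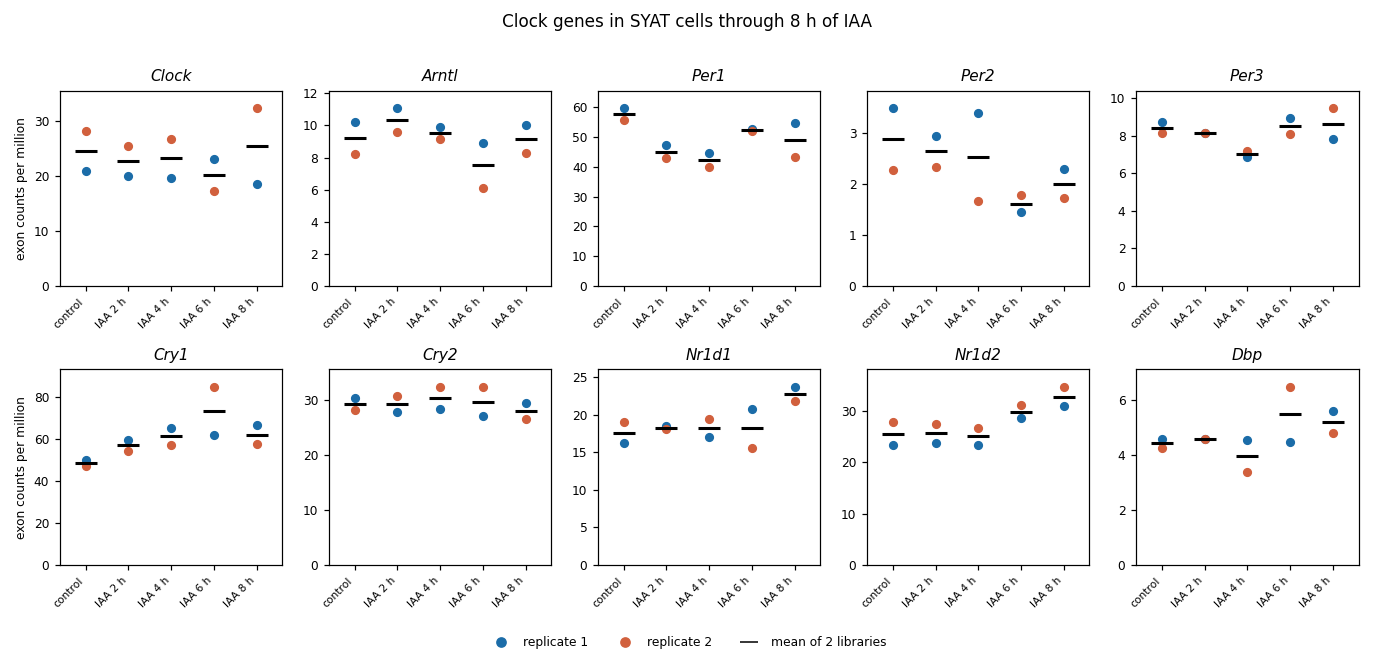
Exon CPM of each clock gene (vertical axis) in control SYAT cells and after 2, 4, 6 and 8 h of IAA (horizontal axis), with points for the libraries and bars for the mean of 2 libraries. All 8 IAA libraries lie above both control libraries for Cry1 (54.3 to 84.4 against 47.0 and 50.0) and below both for Per1 (40.0 to 54.6 against 55.7 and 59.6), and none of the 10 genes passed the test of change at any time.

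The time course asked how RNA changed with hours of SRCAP loss. Cry1 was above both control libraries and Per1 below both at every time, Per2 was below both at 6 h, and the REV-ERB genes were above both at 8 h. The differences were small, and none of the 10 genes passed the test of change (edgeR quasi-likelihood test, adjusted p under 0.05 and an absolute log2 fold change over 0.5). Of all 19205 genes tested, 0% passed at 2 h, 0% at 4 h, 0.0677% at 6 h and 0.00521% at 8 h. DESeq2 also called 0 of the 10 at each time, with 0.0223%, 0.343%, 1.6% and 1% called of the 35880 genes with any count. That base includes genes the edgeR filter leaves out, so these shares cannot be set beside those of edgeR. At an unadjusted p under 0.05, edgeR counted 1 member at 2 h (background 3.92%), 1 at 4 h (9.09%), 1 at 6 h (16.1%) and 0 at 8 h (13.6%), and DESeq2 0, 1, 1 and 0. Members whose IAA libraries did not overlap the control libraries numbered 3 at 2 h, 3 at 4 h, 4 at 6 h and 5 at 8 h, against 39.6%, 45.9%, 43.6% and 44.9% of all genes. The 4 comparisons share the same 2 control libraries. Summed markers of other cell types also stood higher with IAA, at 11.5 to 19.0 against 6.78 to 10.7 CPM in control for the 3 neural markers, 12.04 to 19.7 against 7.97 to 11.03 for the 3 trophoblast markers and 7.19 to 11.2 against 6.58 to 7.06 for the 4 endoderm markers. The fibroblast sums (22.2 to 38.1 against 21.4 to 26.3) and mesoderm sums (2.43 to 4.90 against 1.69 to 2.78) overlapped. EdgeR called none of these markers, and their part in the values of the clock genes was not tested.

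Among the repressors, Cry1 had 50.0 and 47.0 CPM in control, 59.2 and 54.3 at 2 h, 65.2 and 57.0 at 4 h, 61.6 and 84.4 at 6 h, and 66.5 and 57.3 at 8 h. The groups did not overlap at any time, and the 84.4 came from the 6 h library that stood apart. Its log2 fold change was 0.23 ± 0.17 (SE) at 2 h, 0.33 ± 0.17 at 4 h, 0.59 ± 0.17 at 6 h and 0.35 ± 0.17 at 8 h. At 6 h the means were 73.0 ± 16.1 and 48.5 ± 2.09 CPM (SD, n = 2), with an adjusted p of 0.149 in edgeR's quasi-likelihood test. The fold change was 0.80 with only replicate 2 at 6 h, the library that stood apart, and 0.35 with only replicate 1. EdgeR called Cry1 with replicate 2 alone, in a fit that called far more of all genes than the fit on both libraries. DESeq2 with a replicate block called Cry1 with both 6 h libraries (0.60, adjusted p = 0.0317). That DESeq2 fit called 3.34% of the 35880 genes with any count. The other repressor of the pair, Cry2, had 26.5 to 32.3 CPM in the 8 IAA libraries and 30.4 and 28.2 in control, and all of its log2 fold changes lay between -0.07 and 0.05.

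Per1 had 59.6 and 55.7 CPM in control, 47.2 and 42.9 at 2 h, 44.6 and 40.0 at 4 h, 52.8 and 52.0 at 6 h, and 54.6 and 43.2 at 8 h. The values were furthest below control at 4 h, with a log2 fold change of -0.45 ± 0.15 (means 42.3 ± 3.27 and 57.6 ± 2.75 CPM, SD, n = 2, adjusted p = 0.373 by edgeR). At 2, 6 and 8 h the fold changes were -0.36 ± 0.15, -0.14 ± 0.15 and -0.24 ± 0.15. Per2, the member with the lowest counts, had 3.49 and 2.27 CPM in control, 1.45 and 1.78 at 6 h, and 2.30 and 1.73 at 8 h. At 2 h and 4 h the log2 fold change of Per2 took both signs over 12 exon settings (other fits and left-out libraries). It ran from -0.40 to 0.21 at 2 h and from -0.78 to 0.24 at 4 h. Its log2 fold change was -0.83 at 6 h with a 95% interval of -1.76 to 0.10, so that neither no change nor a large decrease was outside the interval. Per3, the third paralog, stayed within 6.84 to 9.45 CPM in all 10 libraries, and its log2 fold changes ran from -0.26 to 0.04.

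The REV-ERB gene Nr1d1 had 16.1 and 19.0 CPM in control and 23.6 and 21.7 at 8 h, a log2 fold change of 0.37 ± 0.19 (adjusted p = 0.422, edgeR). Nr1d2 had 23.3 and 27.8 CPM in control, 28.6 and 31.1 at 6 h, and 30.9 and 34.6 at 8 h, a fold change of 0.36 ± 0.17 at 8 h (adjusted p = 0.378, edgeR). At 2 h and 4 h both genes overlapped control. For the activators, IAA and control libraries overlapped at every time. Clock had 20.9 and 28.1 CPM in control and 17.2 to 32.2 with IAA, and Arntl had 10.2 and 8.22 CPM in control and 6.08 to 11.1 with IAA. Dbp had 4.56 and 4.25 CPM in control and 3.35 to 6.45 with IAA, with fold changes from -0.16 to 0.31. The 8 h libraries were also set against those at 2 h, which leaves out the control libraries, and 0 members passed (background 0%), with 0 at an unadjusted p under 0.05 in edgeR (background 5.23%) and 0 calls by DESeq2 (background 0.039%). The libraries of the 2 times did not overlap for 4 members, against 34.7% of all genes. Nr1d2 had the smallest p there, with a fold change of 0.35 ± 0.17 and an adjusted p of 0.948 in edgeR.

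Libraries with the same replicate number tended to deviate together in the time course except for those of 6 h. A further edgeR fit, chosen after the data were seen, took replicate numbers as a block and left out the 6 h library that stood apart, and tested 20523 genes. It again called 0 of the 10 at the fold threshold, while 1.79%, 6.19%, 6.85% and 11.1% of all genes were called at 2, 4, 6 and 8 h. Some members had an adjusted p under 0.05 in that fit, with differences below the fold threshold. At 2 h this was Per1, with a log2 fold change of -0.36 (adjusted p = 0.0226), 1 of 10 members beside 3.49% of all genes. At 4 h these were Per1 at -0.45 (adjusted p = 0.00239) and Cry1 at 0.32 (adjusted p = 0.00868), beside 13% of all genes. None of the members had such a p at 6 h, beside 9.76% of all genes. At 8 h these were Cry1 at 0.34 (adjusted p = 0.00459), Nr1d2 at 0.35 (adjusted p = 0.00953), Per1 at -0.26 (adjusted p = 0.0313) and Nr1d1 at 0.36 (adjusted p = 0.0366), 4 of 10 beside 21% of all genes. For 8 h against 2 h it was Nr1d2, at 0.35 (adjusted p = 0.0293), beside 5.36% of all genes, and 2.56% of all genes were called with the fold threshold. The fold changes of these genes at 2, 4 and 8 h were nearly those of the fit without the block, and the p-values differed.

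**Figure D2:**
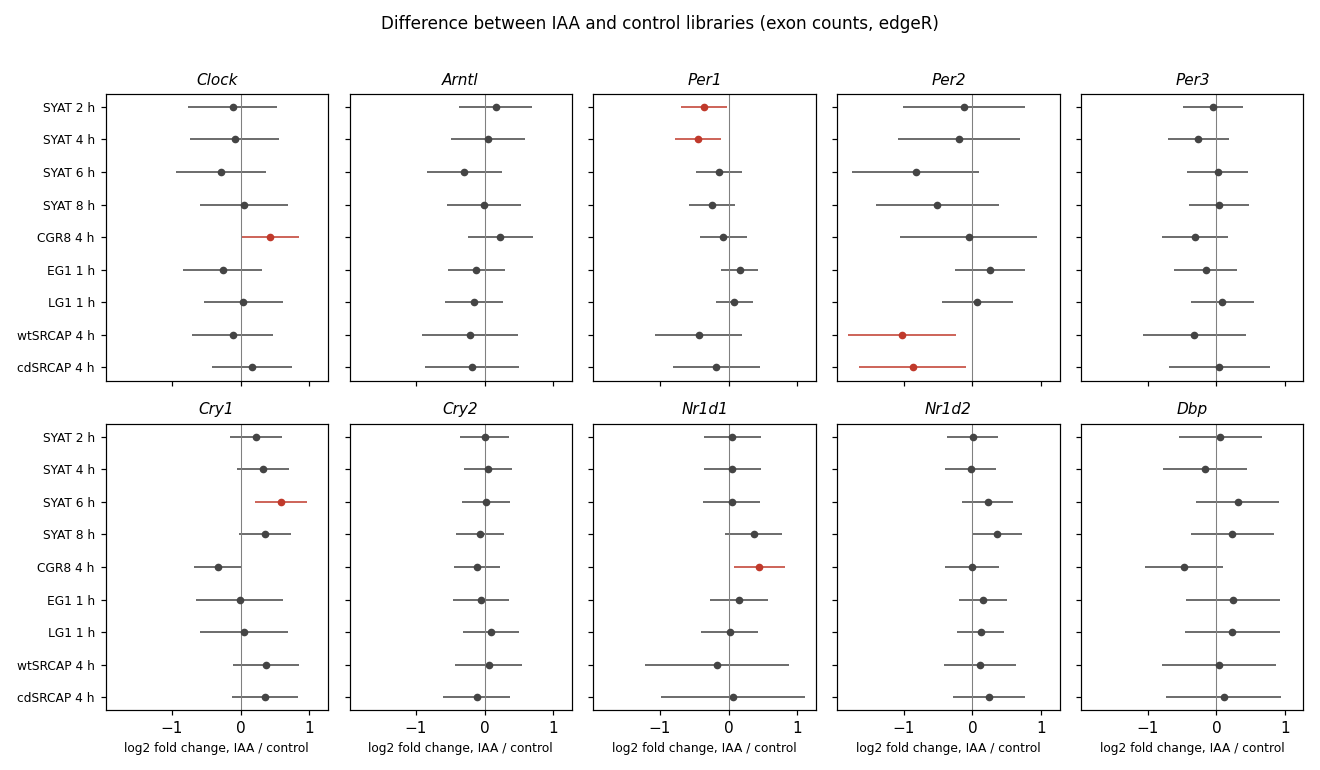
Log2 fold change of exon counts for the 10 clock genes in each IAA comparison, 1 panel a gene, with the comparisons on the vertical axis, the fold change on the horizontal axis, points for the edgeR estimate, bars for its 95% interval and red for an unadjusted p under 0.05. Most intervals include 0, and Cry1 lies above 0 in the time course and in wtSRCAP and cdSRCAP cells (0.23 to 0.59), near 0 in EG1 (-0.01) and LG1 (0.05), and below 0 in parental CGR8 cells (-0.33).

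Parental CGR8 cells were given IAA for 4 h to show the response to the compound where no protein carries the degron. Cry1 was lower in both IAA libraries than in both controls, while Clock and Nr1d1 were higher. None of the 10 genes was called by edgeR (background 0.00988% of 20250 genes) or DESeq2 (background 0.4%), and each tool gave 2 members an unadjusted p under 0.05 (edgeR background 9.16%). The groups did not overlap for 6 members, against 42.2% of all genes. The table was counted and normalized separately from the time course, and the difference between the responses of CGR8 and SYAT cells was not tested. The neural markers summed to 31.1 to 32.0 CPM with IAA and 22.8 to 24.5 in control, mostly from Pax6 (means 28.9 and 19.9). Sox1 went the other way, at means of 2.64 with IAA and 3.78 in control, and Neurog2 was at 0. The part of these markers was not tested.

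Cry1 had 64.4 and 53.0 CPM in CGR8 control and 47.7 and 45.5 with IAA, a log2 fold change of -0.33 ± 0.15 with a 95% interval of -0.68 to 0.01 (adjusted p = 0.544, edgeR). Nr1d1 had 15.5 and 15.7 CPM in control and 22.6 and 20.0 with IAA, a fold change of 0.45 ± 0.16 (adjusted p = 0.540, edgeR). Clock had 21.0 and 28.3 CPM in control and 31.3 and 35.2 with IAA, a fold change of 0.43 ± 0.18 (adjusted p = 0.544, edgeR). All of these groups were separate. The Clock value rested on the control libraries, since the fold change was 0.67 without replicate 2 and 0.25 without replicate 1. So did that of Cry1, which was -0.46 without control replicate 2 and -0.17 without control replicate 1. Dbp had 7.58 and 6.53 CPM in control and 5.89 and 4.26 with IAA, with a fold change of -0.48 ± 0.25 (adjusted p = 0.598, edgeR). Per1, which was below control in the time course, overlapped in CGR8 cells at 60.5 and 57.3 CPM in control and 61.4 and 50.2 with IAA, a fold change of -0.08 with an interval of -0.42 to 0.27. The fold change of Per2 in CGR8 cells took both signs over 10 exon settings, from -0.54 to 0.74.

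**Figure D3:**
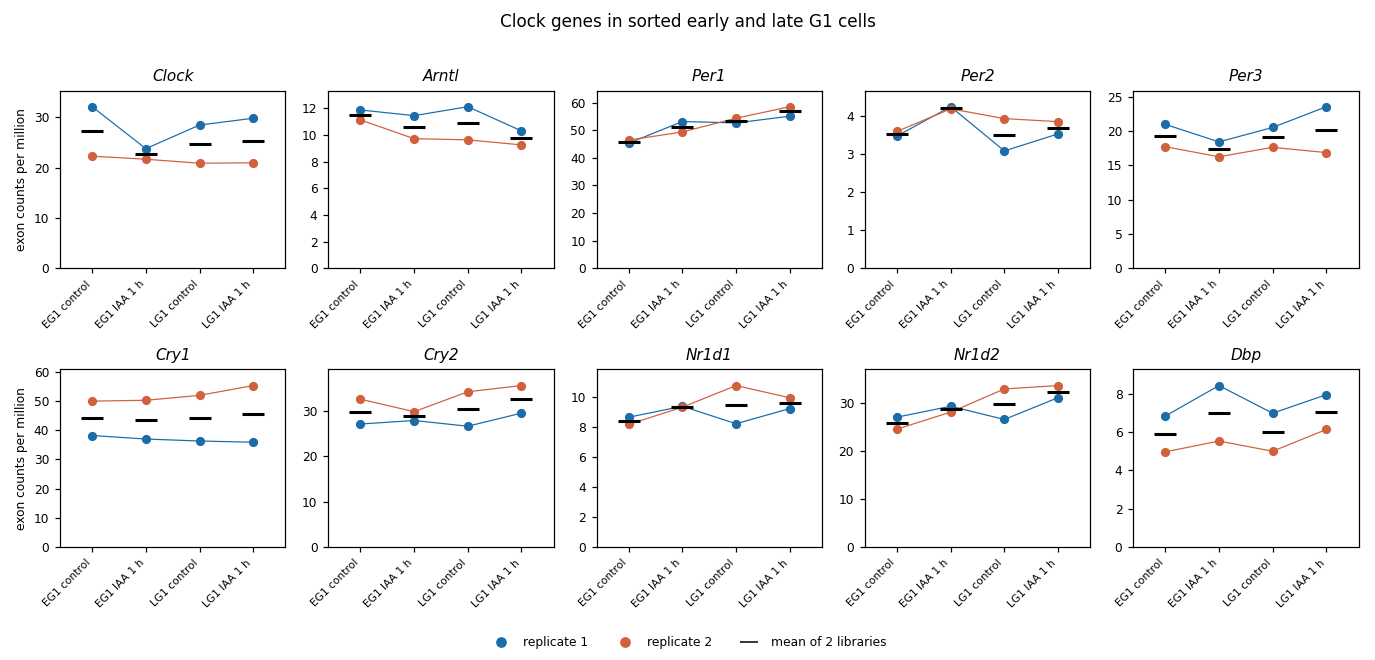
Exon CPM of each clock gene (vertical axis) in sorted EG1 and LG1 cells, control or with IAA for 1 h (horizontal axis), with lines joining libraries of the same replicate number and bars for the mean of 2 libraries. The replicate numbers lie apart for Cry1 (35.8 to 38.1 in replicate 1, 49.9 to 55.2 in replicate 2), while the bars of IAA and control lie close together within each phase.

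In sorted cells the question was whether loss of SRCAP through mitosis into early G1, or within G1, changed the members after 1 h. Here a looser call was used, an unadjusted p under 0.05 and an absolute log2 fold change over 0.25. None of the 10 genes passed in EG1 (background 1.22% of 21020 genes) or in LG1 (background 1.02%). All log2 fold changes lay between -0.26 and 0.25 in EG1 and between -0.15 and 0.23 in LG1, with 95% bounds no further out than -0.84 and 0.92. DESeq2 called 0 members in both (background 0.4% and 0.226%), and 0 members had an unadjusted p under 0.05 with either tool. The groups did not overlap for 4 members in EG1 (Per1, Per2, Nr1d1 and Nr1d2, all higher with IAA) and for 1 in LG1 (Per1), against 21.4% and 18.3% of all genes.

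The replicate numbers separated several members. Cry1 had 35.8 to 38.1 CPM in the 4 libraries numbered 1 and 49.9 to 55.2 in the 4 numbered 2. Clock went the other way, with 23.8 to 32.1 against 20.9 to 22.3 CPM, and so did Dbp, with 6.85 to 8.44 against 4.98 to 6.14. When edgeR took replicate numbers as a block, it again called 0 of the 10 in EG1 (background 6.04%) and in LG1 (background 4.2%). In that fit Clock in EG1 had a log2 fold change of -0.24 and an unadjusted p of 0.0221, but its fold change did not reach 0.25 in size, and Per1 had 0.16 with an unadjusted p of 0.0367.

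Per1 had 45.3 and 46.4 CPM in EG1 control and 53.1 and 49.4 in EG1 with IAA. In late G1 it had 52.6 and 54.3 CPM in control and 55.1 and 58.5 with IAA. EG1 control was thus below the 6 other sorted libraries. Between the 2 phases without IAA its log2 difference, LG1 over EG1, was 0.22 ± 0.12 (53.5 ± 1.20 against 45.8 ± 0.795 CPM, SD, n = 2, adjusted p = 1.00 by edgeR). It was the 1 member without overlap between the phases, against 22.4% of all genes. No member was called between the phases by edgeR without the block (background 0%) or with it (background 0.723%, Per1 adjusted p = 0.158). At an unadjusted p under 0.05, edgeR without the block counted 0 members (background 1.44%) and DESeq2 0, and DESeq2 called 0 (background 0%). The response to IAA in LG1 less that in EG1 ranged from -0.18 to 0.30 over the members, with 0 calls by edgeR (background 0%) or DESeq2 and 0 at an unadjusted p under 0.05 (background 0.699%).

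**Figure D4:**
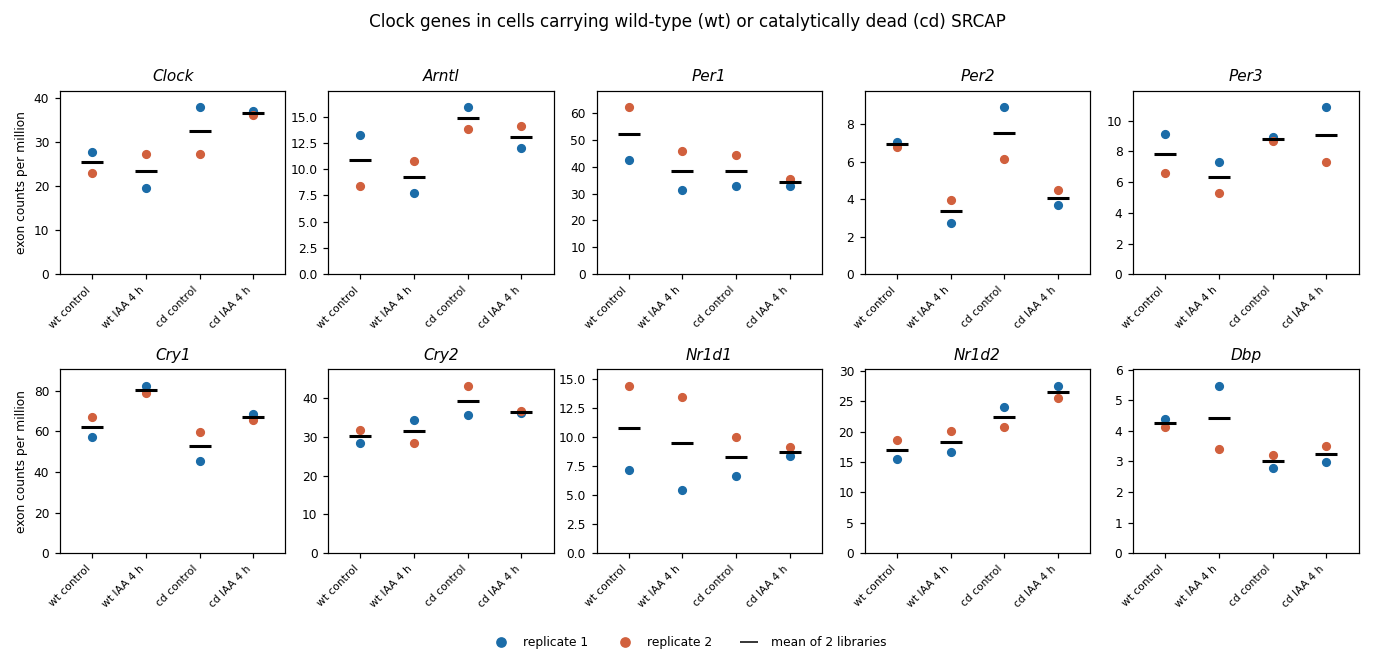
Exon CPM of each clock gene (vertical axis) in wtSRCAP (wt) and cdSRCAP (cd) cells, control or with IAA for 4 h (horizontal axis), with points for the libraries and bars for the mean of 2 libraries. Per2 lies lower with IAA in both lines (2.73 to 4.49 against 6.12 to 8.89) and Cry1 higher within each line.

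The lines that express wild-type or dead SRCAP asked whether the ATPase was needed for the response. Per2 was lower and Cry1 higher with IAA in both lines, without overlap of the libraries, and a test of the difference between the responses of the lines called no member. None of the 10 genes passed in wtSRCAP (background 0.00523% of 19111 genes) or in cdSRCAP (background 0%), and DESeq2 also called 0 (background 0.0423% and 0.0211%). At an unadjusted p under 0.05, both tools counted 1 member in each line, Per2, against 7.4% and 5.64% of all genes in edgeR. With the replicate block edgeR counted 3 members in wtSRCAP and 2 in cdSRCAP at that p, for which the share of all genes is not given here. Members without overlap numbered 2 in wtSRCAP and 3 in cdSRCAP, against 34.4% and 37.7% of all genes. Summed markers of other cell types stood higher with IAA in these libraries too. In wtSRCAP the neural sum was 15.3 to 17.3 against 8.54 to 11.1 CPM, the trophoblast sum 6.61 to 13.2 against 3.72 to 5.05, the fibroblast sum 11.999 to 12.089 against 4.99 to 5.31, the mesoderm sum 1.25 to 2.54 against 0.583 to 0.727 and the endoderm sum 3.44 to 3.51 against 2.40 to 2.68. In cdSRCAP these were 19.7 to 25.8 against 11.4 to 14.6, 10.2 to 10.8 against 4.97 to 5.85, 8.34 to 8.68 against 6.48 to 7.32 and 1.52 to 1.62 against 0.678 to 0.929, while the endoderm sums overlapped. The neural sum was mostly Pax6 (means 15.4 against 8.69 CPM in wtSRCAP and 20.3 against 11.2 in cdSRCAP), while Sox1 overlapped in wtSRCAP. The trophoblast sum was mostly Eomes (8.59 against 3.81 and 9.56 against 4.80), while Elf5 was lower with IAA in both lines. Of the 3 neural markers 1 was at 0 in all 8 libraries, edgeR called none of the markers, and their part in the values of Per2 and Cry1 was not tested.

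Per2 had 7.06 and 6.77 CPM in wtSRCAP control and 2.73 and 3.95 with IAA, a log2 fold change of -1.03 ± 0.35 with a 95% interval of -1.82 to -0.24 (adjusted p = 0.644, edgeR). In cdSRCAP it had 8.89 and 6.12 CPM in control and 3.66 and 4.49 with IAA, a fold change of -0.87 ± 0.35 and an interval of -1.65 to -0.09 (adjusted p = 0.831, edgeR). The fold change in cdSRCAP less that in wtSRCAP was 0.16 ± 0.49. Same-numbered libraries deviated together in this table, and with the block Per2 had -1.01 in wtSRCAP (adjusted p = 0.0908, edgeR) and -0.87 in cdSRCAP (adjusted p = 0.178, edgeR). When replicate 1 of wtSRCAP with IAA was also left out of the blocked fit, a choice made after the data were seen, Per2 was called in cdSRCAP, at -0.88 (adjusted p = 0.0295, edgeR), where 5.77% of all genes were called. The blocked edgeR fit on all libraries called 0 of the 10 in wtSRCAP (background 3.2%) and in cdSRCAP (background 1.81%).

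Cry1 had 57.4 and 67.0 CPM in wtSRCAP control and 82.3 and 78.8 with IAA, a log2 fold change of 0.37 ± 0.21 (adjusted p = 0.748, edgeR). In cdSRCAP it had 45.5 and 59.8 CPM in control and 68.7 and 65.5 with IAA, a fold change of 0.35 ± 0.21 (adjusted p = 0.979, edgeR). The response in cdSRCAP less that in wtSRCAP was -0.02 ± 0.30, with a 95% interval of -0.70 to 0.66. Per1 overlapped between control and IAA in both lines, at 42.5 and 62.1 against 31.4 and 45.7 CPM in wtSRCAP and at 32.7 and 44.4 against 32.9 and 35.4 CPM in cdSRCAP. Within each replicate number of wtSRCAP, Per1 was lower with IAA. Over the 10 members the difference of responses ran from -0.18 to 0.37, and edgeR and DESeq2 called 0 (background 0%), with 0 at an unadjusted p under 0.05 (background 0.785% in edgeR).

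The lines were also compared directly. Without IAA, Arntl, Cry2 and Nr1d2 were higher in both cdSRCAP libraries than in both wtSRCAP libraries and Dbp was lower, 4 of 10 members against 29.8% of all genes. Nr1d2 had 24.1 and 20.7 CPM in cdSRCAP control and 15.5 and 18.6 in wtSRCAP control, a log2 difference of 0.39 ± 0.23, and Dbp had 2.79 and 3.21 against 4.40 and 4.13, a difference of -0.50 ± 0.37. With IAA, Clock had 37.1 and 36.1 CPM in cdSRCAP and 19.5 and 27.2 in wtSRCAP, a difference of 0.64 ± 0.26 (adjusted p = 0.951, edgeR). Nr1d2 had 27.5 and 25.5 CPM in cdSRCAP and 16.6 and 20.1 in wtSRCAP, a difference of 0.53 ± 0.23 (adjusted p = 0.951, edgeR). Without the wtSRCAP library that stood apart these differences were 0.39 for Clock and 0.35 for Nr1d2. EdgeR called 0 members without IAA (background 0%) and 0 with IAA (background 0.00523%), with 0 and 2 members at an unadjusted p under 0.05 (background 3.82% and 5.03%). DESeq2 called 0 in both (background 0.0664% and 0.00906%) and had 0 members at an unadjusted p under 0.05. With the block edgeR again called 0 in both (background 0.91% and 1.41%). In that blocked fit 2 members in each had an unadjusted p under 0.05. Those backgrounds belong to the call, and the share of all genes at that p is not given here. Members without overlap with IAA numbered 5, against 33.7% of all genes.

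The intron columns were read after the exon columns, because they differ between tables. In SYAT time course and EG1 libraries, 65.4% to 68.7% of genes with at least 50 exon counts had an intron count at or above their exon count, against 5.03% to 20.0% in CGR8, LG1, wtSRCAP and cdSRCAP libraries. Per1 shows the difference, with an intron count 1.02 to 1.05 times its exon count in the time course and at most 0.0922 times in CGR8, LG1, wtSRCAP and cdSRCAP cells. The intron columns of the time course and EG1 thus held counts near those of the exons for this gene, and intron values were not compared across tables.

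**Figure D5:**
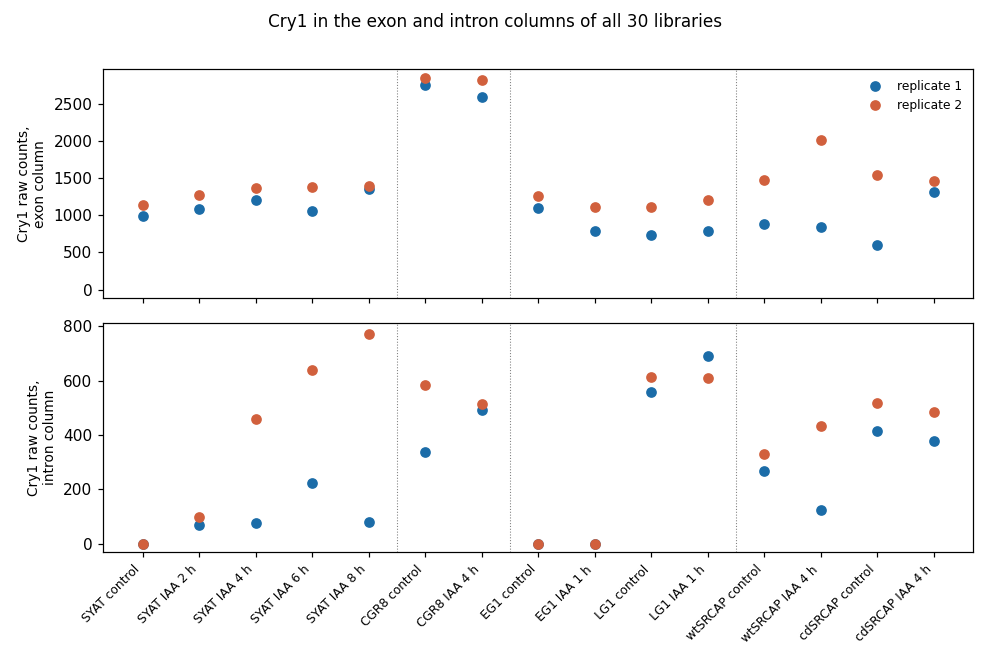
Raw exon counts (upper panel) and intron counts (lower panel) of Cry1 on the vertical axes in the 30 libraries, by condition on the horizontal axis, with colours for replicates 1 and 2. Exon counts are far above 0 in every library, while intron counts are 0 in both time course controls and all 4 EG1 libraries.

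Cry1 intron counts were 0 and 0 in time course control, 69 and 99 at 2 h, 76 and 458 at 4 h, 222 and 639 at 6 h, and 79 and 771 at 8 h, while its exon counts ran from 988 to 1395 in the same 10 libraries. The intron column of Cry1 was also 0 in all 4 EG1 libraries, with 783 to 1263 exon counts, but 557 to 691 in LG1 libraries and 336 to 582 in CGR8 cells. With a floor of 3 counts in each control library, the intron CPM of Cry1 was at least 28.6-fold higher at 2 h, 80.8-fold at 4 h, 187-fold at 6 h and 117-fold at 8 h over the mean of 2 libraries (adjusted p of 0.648, 0.221, 0.109 and 0.132 in edgeR's test on introns). Replicate 2 carried these bounds from 4 h on, since replicate 1 alone gave at least 29.9-fold at 4 h, 88.9-fold at 6 h and 28.4-fold at 8 h, and replicate 2 alone 132-fold, 284-fold and 205-fold. The exon fold changes of the same libraries were 1.17, 1.26, 1.50 and 1.28. How far the counting of introns set the 0 in the control libraries was not tested. The intron bounds therefore describe the column and are no bound on the RNA. Per3 was at 0 in the intron column of all 30 libraries, and Cry2 at 0 in CGR8, LG1, wtSRCAP and cdSRCAP libraries but at 309 to 461 in the time course. The number of members tested on introns was 9 in the time course, 8 in CGR8 cells, 9 in sorted cells and 7 in the wtSRCAP and cdSRCAP lines, and edgeR called none of them with IAA. The shares of all genes called on introns were 0%, 0%, 0.0136% and 0.00679% at 2, 4, 6 and 8 h, 0.022% in CGR8 cells, 2.28% in EG1, 3.94% in LG1, 0.299% in wtSRCAP and 0.236% in cdSRCAP. The members with an unadjusted p under 0.05 on introns numbered 1, 2, 1 and 2 at 2, 4, 6 and 8 h (background 5.13%, 9.5%, 14.5% and 13.5%), 2 in CGR8 cells (5.24%), 0 in EG1, LG1 and wtSRCAP (12.4% in wtSRCAP) and 1 in cdSRCAP (11.3%). That 1 was Per2, with 66 and 56 intron counts in cdSRCAP control and 15 and 21 with IAA, a log2 fold change of -1.85 ± 0.51 (adjusted p = 0.204, edgeR). In wtSRCAP its intron counts, 23 and 30 in control and 7 and 35 with IAA, overlapped. In the time course Per2 had 107 and 89 raw intron counts in control and 45 and 40 at 6 h, not scaled for depth. Its intron counts there were 1.30 to 1.80 times its exon counts. Whether the columns are separate readouts of Per2 was not tested.

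Cry1 was set against all tested genes by the Pearson correlation of log2 exon CPM over the 10 time course libraries, as a description, since these libraries share conditions and depth. The 3 genes most like it were Bcar1 (r = 0.987), Avpi1 (r = 0.985) and Cbr3 (r = 0.983). Over the 8 sorted libraries their r was 0.95, -0.17 and 0.89, and over the 8 wtSRCAP and cdSRCAP libraries 0.74, 0.78 and 0.50.

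The wider list of 24 clock genes, with kinases, ubiquitin ligases, PAR-bZIP factors and other regulators, had 21 tested genes in the time course and 23 in CGR8 and sorted cells. EdgeR called none in the time course, in CGR8 cells, in LG1 or in the wtSRCAP and cdSRCAP lines with IAA. In EG1 with IAA, 1 was called under the looser rule, Bhlhe41, a repressor that binds E-boxes, with 18.6 and 19.3 CPM against 15.2 and 13.9 in control (log2 fold change 0.38 ± 0.15, unadjusted p = 0.0349, edgeR's test across all genes), where 1.22% of all genes were called. At an unadjusted p under 0.05, 2, 2, 3 and 2 of the 21 were higher and 0, 1, 1 and 1 lower at 2, 4, 6 and 8 h (3.92%, 9.09%, 16.1% and 13.6% of all genes in either direction). The counts higher and lower were 0 and 1 in CGR8 cells (9.16%), 0 and 0 in LG1 (1.02%), and 1 and 1 in each of the wtSRCAP (7.4%) and cdSRCAP (5.64%) lines. Bhlhe40, the paralog of Bhlhe41, named after its values were seen, had 11.5 and 6.44 CPM in control and 13.5 to 25.8 with IAA in the time course, with fold changes from 0.96 ± 0.37 at 2 h to 1.30 ± 0.38 at 6 h (adjusted p = 0.147 at 6 h, edgeR). It had 6.40 and 5.58 CPM in cdSRCAP control and 25.5 and 18.3 with IAA, a fold change of 1.88 ± 0.48 (adjusted p = 0.721, edgeR). In CGR8 cells it had 6.36 and 6.35 CPM in control and 7.79 and 9.30 with IAA. Values of Bhlhe40 in wtSRCAP and sorted cells are not given here, so no difference between the lines is claimed.

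Per1 and Per2 are also induced by serum and cAMP, as immediate early genes are. The 7 immediate early genes on a list set beside them (such as Fos, Egr1 and Atf3) had median log2 fold changes of 0.28, 0.24, 0.47 and 0.18 at 2, 4, 6 and 8 h, where Per1 was negative at each time and the median of all genes was 0.00, 0.02, 0.01 and 0.03. In CGR8 cells their median was -0.23. None of the 7 was called by edgeR in the time course, where 0% to 0.0677% of all genes were called. Atf3 alone was called in EG1 and in LG1 under the looser rule, beside 1.22% and 1.02% of all genes. In EG1 the 7 genes summed to 682 to 800 CPM with IAA against 552 to 614 in control, and in LG1 to 882 to 962 against 725 to 757. Per1 was also higher with IAA in both phases, while Per2 was so in EG1 only. In wtSRCAP and cdSRCAP cells the sums were higher with IAA too, where Per1 overlapped and Per2 was lower. The median over the 10 members themselves was 0.00, -0.06, 0.02 and 0.04 in the time course, close to that of all genes.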

How the data were processed

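Nuclear RNA was sequenced from 30 libraries made with a directional kit. Alignment by the authors used STAR and mm10. Their featureCounts step gave 1 count per gene for exons (GENCODE vM25) and 1 for introns, taken as gene bodies less exons, and these raw counts were deposited in 4 tables of 55401 genes. Versions of these tools are left out, since the sources differ for SAMtools, and the strand setting of counting is not given in the sources used here. The deposited result tables hold the authors' DESeq2 fold changes and adjusted p-values and were not used. Gene names and positions came from GENCODE vM21 (55141 identifiers matched without version, all 10 clock genes with version).

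Each table was analysed on its own, exons first. Genes were filtered with filterByExpr (minimum count 10, minimum total count 15), scaled by TMM and tested with edgeR 4.0.16 (quasi-likelihood test on group means, limma 3.58.1, R 4.3.3) with Benjamini-Hochberg adjustment over all genes tested. A gene was called at an adjusted p under 0.05 and an absolute log2 fold change over 0.5, and for IAA in sorted cells at an unadjusted p under 0.05 and a fold change over 0.25, the thresholds of the study. CPM used the same TMM-scaled totals. The tests were tested on simulated data. Python 3.11.15, pandas 2.3.3 and matplotlib 3.10.9 were used for summaries and figures. The study's reporting summary describes replicates as separately grown and treated cells, and the labels do not say so per library. Totals of 12.2 to 60.2 M counts per library limit the precision of the lowest genes, and 2 libraries per condition limit all of them.

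Alternatives were DESeq2 1.42.0 (its own size factors), no filter on low counts, a replicate block, intron columns and leaving out each library. DESeq2 shares of all genes are over genes with any count. These numbered 35880 in the time course, 30751 in CGR8 cells, 36790 in sorted cells and 33130 in the wtSRCAP and cdSRCAP lines. The DESeq2 shares are thus on a wider base than those of edgeR. Same-numbered libraries deviated together in the sorted table (correlations of 0.35 to 0.57) and in the wtSRCAP and cdSRCAP table (0.23 to 0.34). There the number was taken to pair the libraries, though the labels give only a number. The main fit leaves this pairing out, and calls of the blocked fit are given beside those without it. Fold changes and p-values come from the fit without the block unless the block is named. By rule the text names the 10 clock genes, genes of the wider lists that passed the call, the 3 genes most like Cry1 and the targeted gene. Bhlhe40 was added after its values were seen, and other genes are named as list examples or as overlapping genes. The clock genes and the lists were chosen with earlier results of these data known.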

Additional observations from a re-analysis of the deposited data

How the results depend on the processing

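Of the 193 values of the number of clock genes called under other settings, 189 were 0. For the difference of IAA responses, between phases or between lines, DESeq2 without the block and edgeR with it called 0% of all genes. DESeq2 without the block called 0.00906% to 0.0664% of all genes in the other wtSRCAP and cdSRCAP comparisons. A 0 for the clock genes says little where so few of all genes were called. The other 4 of the 193 values were 1. Cry1 was called at 6 h by DESeq2 with the replicate block (log2 fold change 0.60, adjusted p = 0.0317) and by edgeR without replicate 1 of 6 h. Clock was called in CGR8 cells by edgeR without control replicate 2. The edgeR calls of Cry1 and Clock came from fits with 1 library in a group. Those fits called far more of all genes than the fits on all libraries. Per2 was called in cdSRCAP in the edgeR fit with the replicate block and without wtSRCAP IAA replicate 1, which was chosen after the data were seen. Leaving out 1 library gave 0 to 1 clock genes at 6 h and in CGR8 cells, and 0 to 0 in the other 13 comparisons. Cry1 was above control in 12 of 12 exon settings and Per1 below control in 12 of 12 at each of 2, 4, 6 and 8 h. These settings reuse the same libraries, whose IAA and control values did not overlap for either gene. The sign was thus largely fixed beforehand, and the counts add no separate evidence. In the time course the pairing of replicate numbers was met only in part, since correlations of the replicate differences ran from 0.25 to 0.57 for the 6 pairs of conditions without 6 h and from -0.04 to 0.05 for the 4 with it, and in CGR8 cells the single pair gave 0.07. The edgeR fit with the replicate block called 0 clock genes in all 15 comparisons, while its share of all genes called was 0% at 2 h, 0.396% at 4 h, 4.29% at 6 h, 3.3% at 8 h and 2.47% in CGR8 cells. The intron columns were not used as an alternative for LG1 against EG1, since intron counts reach the exon counts for most genes in EG1 but not in LG1. The same holds for the difference of the IAA responses of these phases. The cause of the differences between settings was not tested. Depth limits Per2 most, at 1.45 to 3.49 CPM in the time course.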
